A study of Mus musculus with 9 samples.

Results

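The genes described here are 10 genes of mitosis and of the phases that lead to it (Cdk1, Ccnb1, Ccnb2, Ccna2, Plk1, Aurkb, Birc5, Bub1, Top2a and Mki67), measured in the retina of adult mice after injection of peptides into the eye. They are 10 of the 19751 genes that could be named on the array. Every probe whose transcript accession belongs to one of them was taken, which gave 17 of 39429 probes. Cdk1 was selected on its measured level in the HAN group, so its differences that involve HAN are given as a description and carry no test; the other 9 are further genes of cell division.

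Dividing cells switch these genes on together late in the cell cycle and switch them off when they leave it. The kinase encoded by Cdk1 is active only when bound to a cyclin, and drives the cell into mitosis; Plk1, Aurkb and Bub1 encode further kinases of mitosis, Birc5 a partner of Aurora B, Top2a an enzyme that untangles DNA, and Mki67 the Ki-67 protein, the usual stain for cycling cells. Retinal neurons of the adult mouse do not divide, and the Mueller glia of the mouse rarely do, so the messages are used as markers of cells that may cycle. Which cells gave the signals measured here was not tested.

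Adult male C57BL/6 mice received an injection into the vitreous of the right eye, with 12 mice in a group. The control group received phosphate-buffered saline (PBS); the others received AAP or HAN, 2 peptides described in the series title as having high affinity for vascular endothelial growth factor (VEGF). The labels write 1 µM for all 3 groups, PBS included. Retinas were taken at 7 days, and RNA of 4 retinas was pooled for each array, which gave 3 pools a group and 9 arrays. Each value is thus that of a pool, the eyes carried no lesion or transgene that the labels name, and p-values measure the spread between pools. In whole tissue, fewer cells of a type and less RNA per cell cannot be told apart.

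Levels are log2 of the processed signal minus the log2 75th percentile of the array, so 0 is the 75th percentile and a difference of 1 is 2-fold. The 75th percentile of the processed signal was 1334 to 2343, and Feature Extraction marked 71.6% to 79.2% of the spots as well above background. The tissue label was borne out by the rod genes, since all 10 were well above background on all 9 arrays. Pools differed in markers of neighbouring tissue. PBS 1 and AAP 1 stood apart in most measured genes of a list for corneal, conjunctival and ciliary epithelium. The corneal keratin Krt12 was high in PBS 1 but not in AAP 1. AAP 1 and AAP 3 stood apart in skeletal muscle genes, and lens crystallin genes varied in every group. These values are set beside the mitotic genes further on.

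Promoters show what these genes are known to share. The stretch from 250 bases before to 50 after the annotated start was in the RefSeq table (build GRCm38.p6) for 8 of the 10 genes, all but Ccna2 and Aurkb. The motifs searched on both strands were TTTGAA and TTCGAA, forms of the cell cycle genes homology region, and CCAAT, the box bound by NF-Y; none of these overlaps another in the promoters printed. TTTGAA or TTCGAA was in 6 of the 8 and in 19.2% of all 32851 promoters in the table. CCAAT was in 7 of the 8 and in 37.4% of all promoters. The E2F motifs TTTCCCGC and TTTGGCGC were in 0 of the 8, and 1.56% of all promoters hold at least 1 of them. Other forms of the E2F site were not searched, so the 0 does not show that such sites are absent. The promoters printed are those of Cdk1, for which the set was made, of Mki67, Birc5 and Ccnb1, whose signals ran together over the pools, and of Plk1, whose signal hardly varied. They lie at chr10:69352863-69353162 (- strand) for Cdk1, chr7:135716330-135716629 (- strand) for Mki67, chr11:117848987-117849286 (+ strand) for Birc5, chr13:100786437-100786736 (- strand) for Ccnb1 and chr7:122159185-122159484 (+ strand) for Plk1. Each runs 5′ to 3′ along its gene, and capitals mark every match, on either strand, to the homology region forms and to the CCAAT box.
Cdk1: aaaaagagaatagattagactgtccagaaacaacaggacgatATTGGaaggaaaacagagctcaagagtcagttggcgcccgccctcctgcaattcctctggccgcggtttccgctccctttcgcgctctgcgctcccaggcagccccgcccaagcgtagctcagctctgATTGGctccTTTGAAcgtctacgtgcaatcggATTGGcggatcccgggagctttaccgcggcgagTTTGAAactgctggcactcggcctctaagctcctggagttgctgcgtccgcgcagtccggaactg
Mki67: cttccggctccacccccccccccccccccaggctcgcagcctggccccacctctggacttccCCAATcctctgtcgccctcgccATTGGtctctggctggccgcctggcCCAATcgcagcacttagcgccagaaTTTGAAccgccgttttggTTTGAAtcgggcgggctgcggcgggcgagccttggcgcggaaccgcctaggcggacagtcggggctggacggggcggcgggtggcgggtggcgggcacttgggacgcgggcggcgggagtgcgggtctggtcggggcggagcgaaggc
Birc5: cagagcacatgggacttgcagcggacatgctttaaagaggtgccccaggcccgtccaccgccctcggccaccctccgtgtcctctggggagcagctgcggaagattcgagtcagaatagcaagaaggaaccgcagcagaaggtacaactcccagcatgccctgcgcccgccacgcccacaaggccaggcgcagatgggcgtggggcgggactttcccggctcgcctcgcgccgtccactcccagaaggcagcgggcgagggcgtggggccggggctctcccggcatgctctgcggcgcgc
Ccnb1: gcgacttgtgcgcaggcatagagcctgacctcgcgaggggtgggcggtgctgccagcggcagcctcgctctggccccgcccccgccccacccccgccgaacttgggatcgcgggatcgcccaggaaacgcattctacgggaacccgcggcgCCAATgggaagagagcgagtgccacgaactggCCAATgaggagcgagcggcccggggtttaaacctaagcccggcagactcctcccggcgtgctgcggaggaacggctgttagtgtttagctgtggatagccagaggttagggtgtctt
Plk1: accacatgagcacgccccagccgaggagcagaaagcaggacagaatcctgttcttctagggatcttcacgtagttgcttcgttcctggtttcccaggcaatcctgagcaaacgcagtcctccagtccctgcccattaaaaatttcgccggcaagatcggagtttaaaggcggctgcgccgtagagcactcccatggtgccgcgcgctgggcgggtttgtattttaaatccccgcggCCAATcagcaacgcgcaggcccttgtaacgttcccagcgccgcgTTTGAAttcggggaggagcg
In Cdk1, TTTGAA starts 71 and 15 bases before the start site (positions -71 and -15), and CCAAT is read on the other strand at -208, -80 and -48. Mki67 has TTTGAA at -116 and -98, and Plk1 has it after the start site, at 31. Ccnb1 has 2 CCAAT boxes, at -99 and -67, and neither form of the homology region. Birc5 has none of the searched motifs in this window. Mki67, Birc5 and Ccnb1 thus hold different sets of these letters. Whether the motifs bear on their signals over the pools was not tested. A match is a stretch of letters only; binding was not measured.

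Of the 17 probes, 5 were well above background on all 9 arrays (those of Ccnb2, Ccna2 and Plk1, and 1 each of Birc5 and Mki67) and 4 on none. Testing needed a probe to be well above background in every pool of 1 group or more. That left 9 probes of 7 genes; Aurkb, Bub1 and Top2a were not tested. Probe 1 of Cdk1 passed only through the HAN pools, in which it is high, and probe 3 only through PBS. Where a gene had several such probes, the tests used the one with the highest mean signal.

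**Figure D1:**
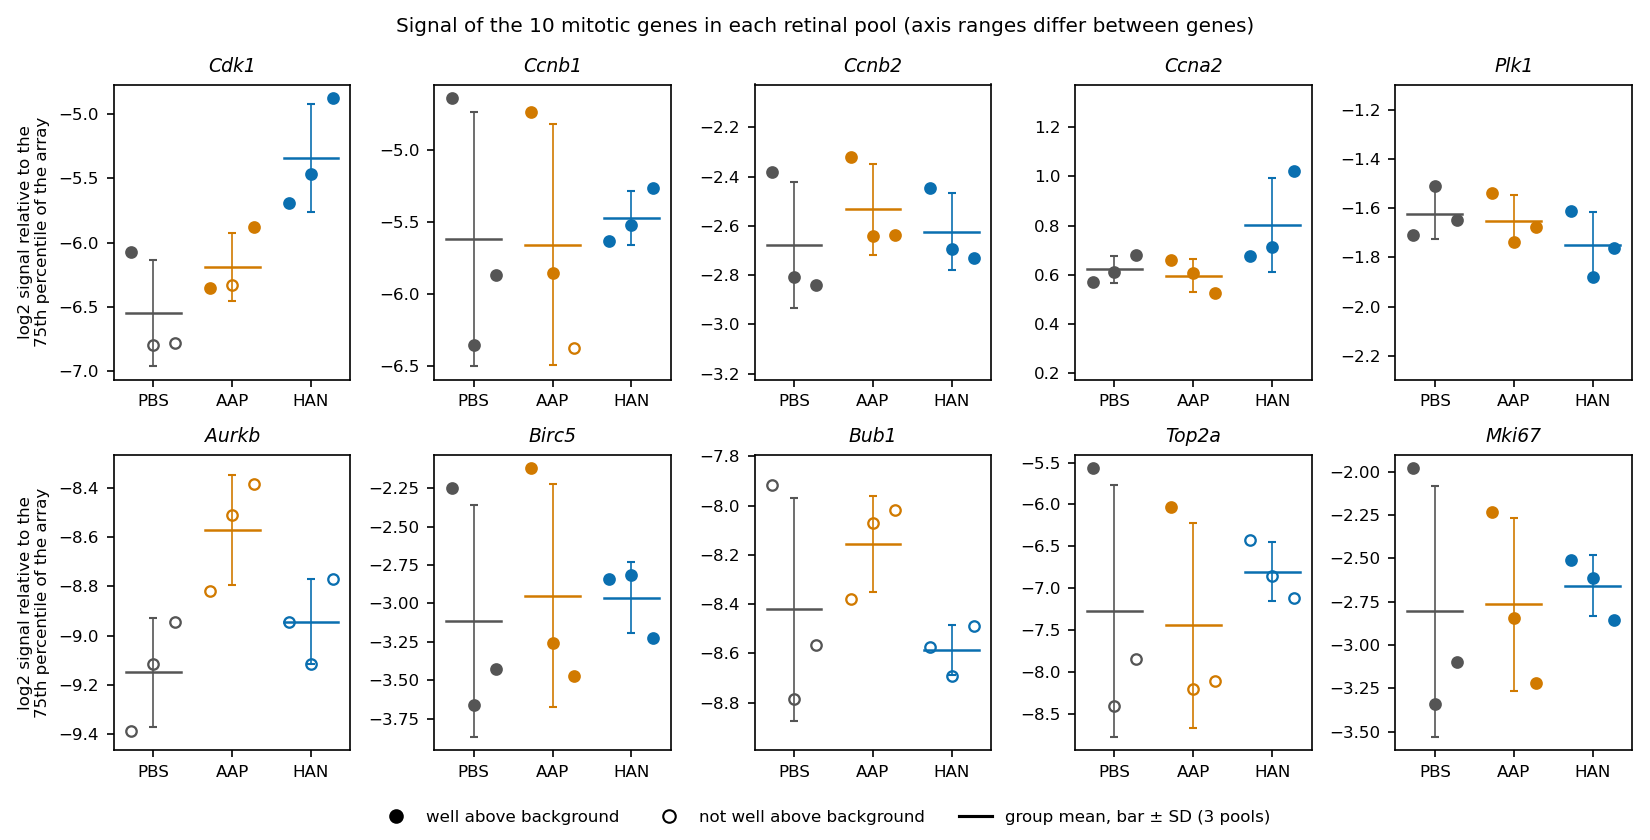
Level of each of the 10 genes in each pool (log2 signal relative to the 75th percentile of the array, vertical axes differing between genes), with filled points well above background, open points not, and lines at the group mean ± SD of 3 pools. For genes with several probes the one used in the tests is drawn. PBS 1 and AAP 1 are the highest of their groups for Ccnb1, Birc5, Top2a and Mki67, while Plk1 stays between -1.88 and -1.51.

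Cdk1 encodes the kinase itself. Its probe 1 read -6.07, -6.79 and -6.79 in PBS pools 1 to 3, -6.36, -6.33 and -5.88 in AAP, and -5.69, -5.46 and -4.87 in HAN. Every HAN pool was above every PBS and AAP pool; the PBS and AAP pools overlapped. The signal is dim: the probe was well above background in 1 of 3 PBS pools, 2 of 3 AAP pools and 3 of 3 HAN pools. The group means ± SD were -6.55 ± 0.41 in PBS, -6.19 ± 0.27 in AAP and -5.34 ± 0.42 in HAN (n = 3 each). The HAN mean was above the PBS mean by 1.21 on the log2 scale, or 2.31-fold, and AAP stood at -0.85 relative to HAN. These are the values for which the gene was chosen. Without HAN 3, the pool with the highest signal, the difference between HAN and PBS was 0.98.

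A second Cdk1 probe did not repeat that order. Probe 3 read -4.89, -6.52 and -6.20 in PBS, -4.81, -6.14 and -8.38 in AAP, and -5.80, -6.46 and -6.57 in HAN, and was well above background everywhere except in AAP 3 and HAN 3. Its highest pools were PBS 1 and AAP 1, and the groups overlapped in every pairing. Its HAN mean was lower than its PBS mean (-6.28 ± 0.41 against -5.87 ± 0.87, SD, n = 3 each), a difference of -0.41, opposite in sign to that of probe 1. With background corrected by the normexp method this difference was 0.71, so its sign depended on the processing. Probe 2 ran from -9.06 to -7.39 and was well above background on no array, so it gives no level.

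**Figure D2:**
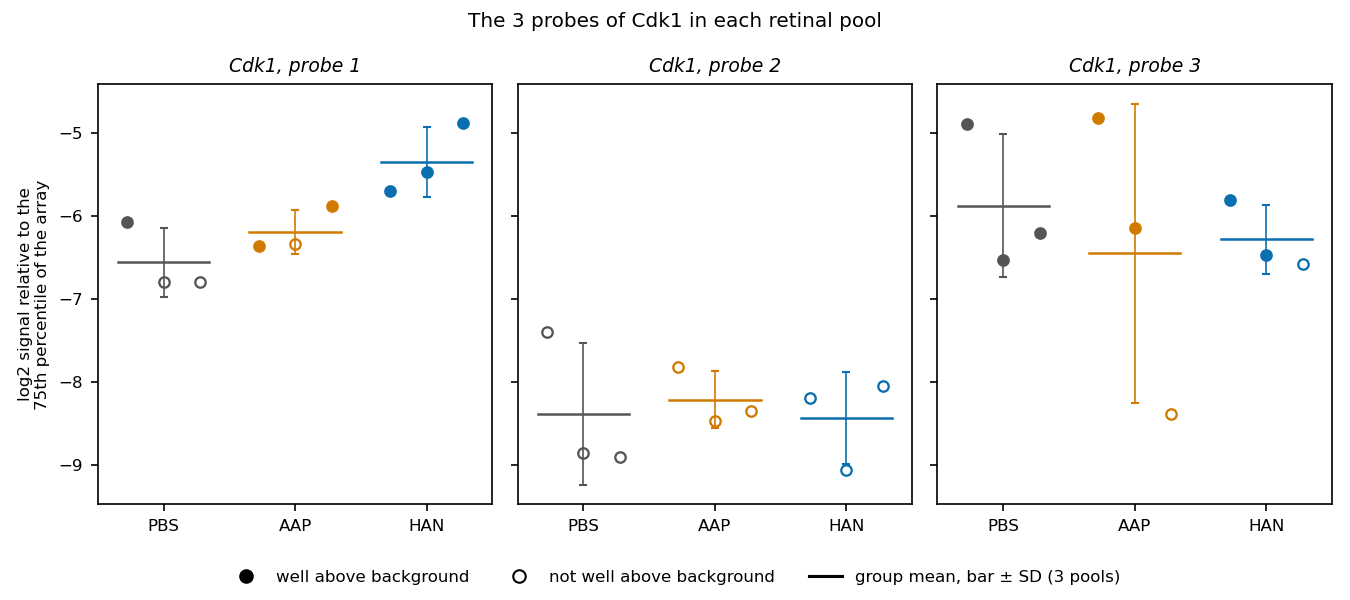
The 3 probes of Cdk1 in each pool on a common axis (log2 signal relative to the 75th percentile of the array), with filled points well above background, open points not, and lines at the group mean ± SD of 3 pools. Only probe 1 has its HAN pools (-5.69 to -4.87) above all others; probe 3 is highest in PBS 1 and AAP 1.

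Ccnb1 and Ccnb2 encode the B-type cyclins that bind the kinase at entry into mitosis. The tested Ccnb1 probe (probe 2) read -4.64, -6.35 and -5.87 in PBS, -4.74, -5.86 and -6.38 in AAP, and -5.63, -5.52 and -5.26 in HAN, well above background in all pools but AAP 3. PBS 1 and AAP 1 were more than 1 log2 unit above the other pools of their groups, and the HAN pools lay between. Its probe 1 was well above background on no array and its probe 3 in PBS 1 and HAN 2 only.

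Ccnb2 was measured on every array. It read -2.38, -2.81 and -2.84 in PBS, -2.32, -2.64 and -2.64 in AAP, and -2.45, -2.70 and -2.73 in HAN. Pool 1 was the highest of each group, and all 9 arrays lay within 0.52 log2 units, or 1.44-fold.

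Ccna2, the cyclin of DNA synthesis and of entry into mitosis, read 0.57, 0.61 and 0.68 in PBS, 0.66, 0.61 and 0.53 in AAP, and 0.67, 0.71 and 1.02 in HAN. The HAN pools were all above the AAP pools, by little except in HAN 3, and overlapped PBS. In the GRCm38.p6 annotation the Ccna2 and Exosc9 genes share 863 bases; where the probe lies relative to them was not analysed here.

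Among the other 3 kinases of the set, only Plk1, which matures centrosomes and is needed at several steps of mitosis, was well above background. It read -1.71, -1.51 and -1.65 in PBS, -1.54, -1.74 and -1.68 in AAP, and -1.61, -1.88 and -1.76 in HAN, a range over all arrays of 0.37 log2 units, or 1.29-fold. The groups overlapped and PBS 1 was here the lowest of its group. The probe for Aurkb, the kinase of the chromosomal passenger complex, was well above background on no array (-9.39 to -8.38). The probe for Bub1, a kinase of the spindle checkpoint printed as 10 spots, was likewise not well above background on any array (-8.79 to -7.91). Neither gene has a level that can be compared between groups.

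Birc5 encodes survivin, a subunit of the complex that holds Aurora B. Its probe 3 read -2.25, -3.66 and -3.43 in PBS, -2.12, -3.26 and -3.47 in AAP, and -2.84, -2.82 and -3.23 in HAN, well above background on every array. PBS 1 and AAP 1 stood more than 1 log2 unit above the others of their groups. Probe 1 was well above background in PBS 1, AAP 1 and HAN 2. Probe 2 was well above background in AAP 3 alone, at -2.75, against -8.56 to -6.18 elsewhere. Its AAP mean was 2.10-fold a bound for PBS and 2.07-fold a bound for HAN. That mean rests on 1 of 3 AAP pools, the others not being well above background, so neither fold is a lower limit. In AAP 3, probes 1 and 3 were the lowest of the AAP group.

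Top2a, the topoisomerase that separates sister chromatids, read -5.57, -8.41 and -7.84 in PBS, -6.04, -8.20 and -8.10 in AAP, and -6.43, -6.85 and -7.12 in HAN. It was well above background in PBS 1 and AAP 1 only, so HAN has only a bound and no fold is given. Mki67 was well above background on all 9 arrays with its probe 1, and in all pools but AAP 3 with its probe 2. Its probe 1 read -1.98, -3.34 and -3.10 in PBS, -2.23, -2.85 and -3.22 in AAP, and -2.51, -2.61 and -2.85 in HAN. Its probe 2 read -2.91, -6.13 and -5.40 in PBS, -3.28, -5.03 and -6.16 in AAP, and -4.08, -3.88 and -4.64 in HAN. Both probes had PBS 1 and AAP 1 on top and the HAN pools close together, between the highest and the lowest pools of the other groups.

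The series asked how the peptides alter retinal gene expression, and 3 comparisons follow from it; AAP against PBS and HAN against PBS share the PBS pools. In AAP against PBS, none of the 7 tested genes was called by limma at an adjusted p under 0.05, nor at an unadjusted p under 0.05. Over all 23889 genes, 0.00419% were called and 6.79% had an unadjusted p under 0.05. The median difference was 0.04 for the 7 genes (4 higher, 3 lower) and 0.0075 without Cdk1 (3 higher, 3 lower), against 0.0048 over all genes. None of the 7 had groups that did not overlap, against 11.9% of all genes. Cdk1 probe 1, which was kept and stood for its gene through its HAN signal and was well above background in 1 of 3 PBS and 2 of 3 AAP pools, differed by 0.36 (SE 0.27, 95% interval -0.27 to 0.99, limma adjusted p = 0.824). Probe 3 of Cdk1 went the other way, at -0.58, but was at 0.18 with the normexp background correction. For Mki67 the difference was 0.04 with an interval of -0.82 to 0.90 (limma adjusted p = 0.991).

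In HAN against PBS, limma called none of the 6 members tested without Cdk1, and 0 of them had an unadjusted p under 0.05. Of all genes, 0.00419% were called and 9.65% had an unadjusted p under 0.05. The 6 had limma adjusted p-values of 0.588 to 0.948 and differences with a median of 0.15, 5 of them higher in HAN; the median over all genes was 0.0054. Mki67 was higher by 0.15 (SE 0.37, interval -0.71 to 1.01, limma adjusted p = 0.927). Ccna2 was higher by 0.18 (SE 0.10, interval -0.05 to 0.41, limma adjusted p = 0.588). Plk1 was the one member with a lower mean in HAN, at -0.13 (SE 0.09, interval -0.35 to 0.09, limma adjusted p = 0.697), and at 0.045 when background was corrected by the normexp method. Cdk1 was the only 1 of the 7 whose groups did not overlap, against 20.9% of all genes, and it had been chosen for that value. With normexp the low signals of HAN 3 stood apart (10th percentile -1.99, against -5.05 to -4.40 on the other arrays), and the median of all genes in HAN against PBS was 0.15.

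In AAP against HAN, limma called 0% of all genes and none of the 6 members tested without Cdk1. An unadjusted p under 0.05 was found for 8.54% of all genes. Without Cdk1, the median difference of the other 6 was -0.05 (3 higher, 3 lower) against 0.0027 over all genes, and 0 of the 6 had an unadjusted p under 0.05. They had limma adjusted p-values of 0.576 to 0.994. Groups did not overlap for 1 of these 6, Ccna2, against 14.3% of all genes; they also did not for Cdk1, which was chosen for its HAN level. Ccna2 was lower in AAP, at -0.21 (SE 0.10, interval -0.43 to 0.02, limma adjusted p = 0.576). Birc5 differed by 0.01 with an interval of -1.02 to 1.04 (limma adjusted p = 0.994).

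**Figure D3:**
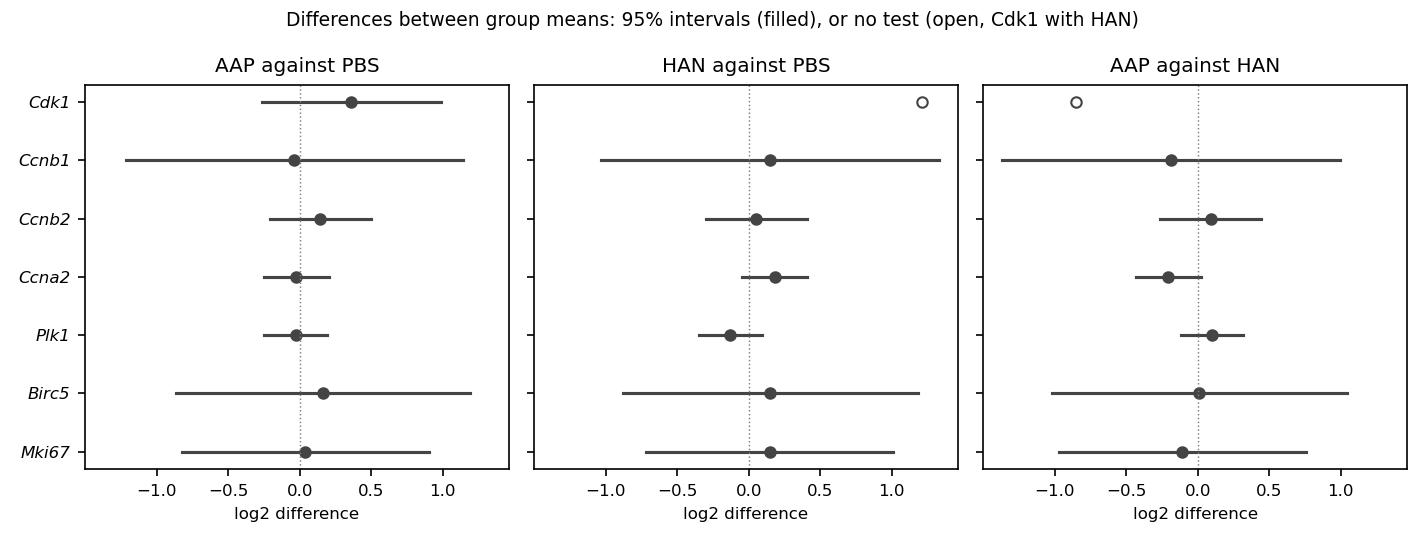
Log2 differences between group means for the 7 tested genes in each comparison; filled points have 95% intervals from limma and the open points are Cdk1 in the comparisons with HAN, given without a test. Every drawn interval crosses 0, and those of Ccnb1, Birc5 and Mki67 are the widest.

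Slides held the groups unequally. The 3 PBS pools and AAP 1 were on 1 slide, AAP 2, AAP 3, HAN 1 and HAN 2 on another, and HAN 3 on its own, so HAN and PBS never shared a slide. On the first slide AAP 1 differed from the PBS mean by 0.57 for Mki67, 0.99 for Birc5 and 0.88 for Ccnb1. For Ccnb2 it differed by 0.36, for Cdk1 probe 1 by 0.20, for Plk1 by 0.09 and for Ccna2 by 0.04. AAP 1 is 1 pool, which also stood apart in muscle genes and in the list for corneal, conjunctival and ciliary epithelium, Krt12 excepted. On the second slide, the AAP pools differed from the HAN pools by -0.47 for Mki67, -0.54 for Birc5, -0.54 for Ccnb1 and -0.53 for Cdk1 probe 1. Ccna2 differed there by -0.13, Ccnb2 by -0.07 and Plk1 by 0.04. These are different comparisons, and no slide gives one of HAN with PBS, for which slide and peptide cannot be told apart.

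Ccnb1, Birc5 and Mki67 varied widely between pools of the same group. The pooled SD within groups was 0.71 for Ccnb1, 0.62 for Birc5 and 0.52 for Mki67, above 96.1%, 94.8% and 92.6% of all tested genes. It was 0.37 for Cdk1 probe 1 and 0.20 for Ccnb2. For Ccna2 (0.12) and Plk1 (0.11) it was near the median of all genes, 0.13. PBS 1 was the highest PBS pool and AAP 1 the highest AAP pool for 4 of the 7 tested genes (57.1%), against 12.5% of all genes. With a lead of over 0.5 log2 units in both groups, the members were Ccnb1, Birc5 and Mki67 (42.9%), against 1.33% of all genes. The pools were singled out after their values were seen, so this is a description.

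Other genes of the cycle with such a lead in both pools were Rrm2, Tk1 and Uhrf1, which serve DNA synthesis and its methylation (3 of 25 in the DNA replication list), Tpx2, Anln and Nusap1, which act on the spindle and in cytokinesis (3 of 19), Ncaph of condensin (1 of 10) and the kinase inhibitor Cdkn2b (1 of 11). Tk1 read -3.78, -6.08 and -5.51 in PBS, -3.62, -5.41 and -6.36 in AAP, and -4.56, -4.92 and -4.96 in HAN. No gene of the lists of checkpoint, kinetochore or transcription factors had it.

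Markers of other tissue moved with these pools. Of 8 measured genes of the list for corneal, conjunctival and ciliary epithelium, 7 had the same lead in PBS 1 and AAP 1. The exception was the corneal keratin Krt12, which was high in PBS 1 but not in AAP 1. It read 2.20, -3.44 and -2.53 in PBS, -2.69, -1.85 and -3.98 in AAP, and -1.53, -3.35 and -1.69 in HAN. Of the 11 genes of the list, 3 were not well above background in any whole group. Its mean deviation from the PBS mean was 1.94 in PBS 1 and 3.45 in AAP 1 against -1.13 and -0.81 in the other PBS pools, -0.35 and -1.36 in the other AAP pools, and -0.64 to -0.14 in HAN. The summed level of its genes, on a linear scale where 1 is the 75th percentile, was 3.75 to 35.1 in PBS, 2.95 to 96.6 in AAP and 7.03 to 16.0 in HAN. The fibroblast and sclera list had 4 of 7 measured genes with the lead, and its summed level was 4.80 to 10.3 in PBS, 3.55 to 21.6 in AAP and 3.38 to 4.50 in HAN.

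The list of skeletal muscle genes followed AAP 1 and AAP 3 (mean deviations of 5.69 and 4.41, against -0.28 to 0.28 in the other pools), and 5 of its 11 measured genes had the lead in PBS 1 and AAP 1; Mki67, Birc5 probe 3 and Ccnb1 were the lowest of the AAP pools in AAP 3. Lens genes had the lead in 0 of 18 and rod genes in 0 of 10. All 18 lens genes had a higher mean in HAN than in PBS, and their summed level was 160.3 to 1325 in PBS, 192.6 to 2292 in AAP and 1029 to 1535 in HAN. Microglia and macrophage genes, 14 of 15 measured, had a mean deviation of -1.12 to -0.37 in AAP and -0.99 to -0.17 in HAN. Of these 14 genes, 13 had a lower mean in AAP than in PBS, and 13 in HAN than in PBS. Groups did not overlap for 10 in AAP against PBS (11.9% of all genes) and for 9 in HAN against PBS (20.9% of all genes). None was called by limma. The summed level of the 14 genes, which the brightest dominate, was 50.6 to 56.3 in PBS, 50.9 to 62.5 in AAP and 63.6 to 67.6 in HAN. In HAN this sum was higher than in PBS without overlap. The part of other tissue in the levels of the mitotic genes was not tested.

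**Figure D4:**
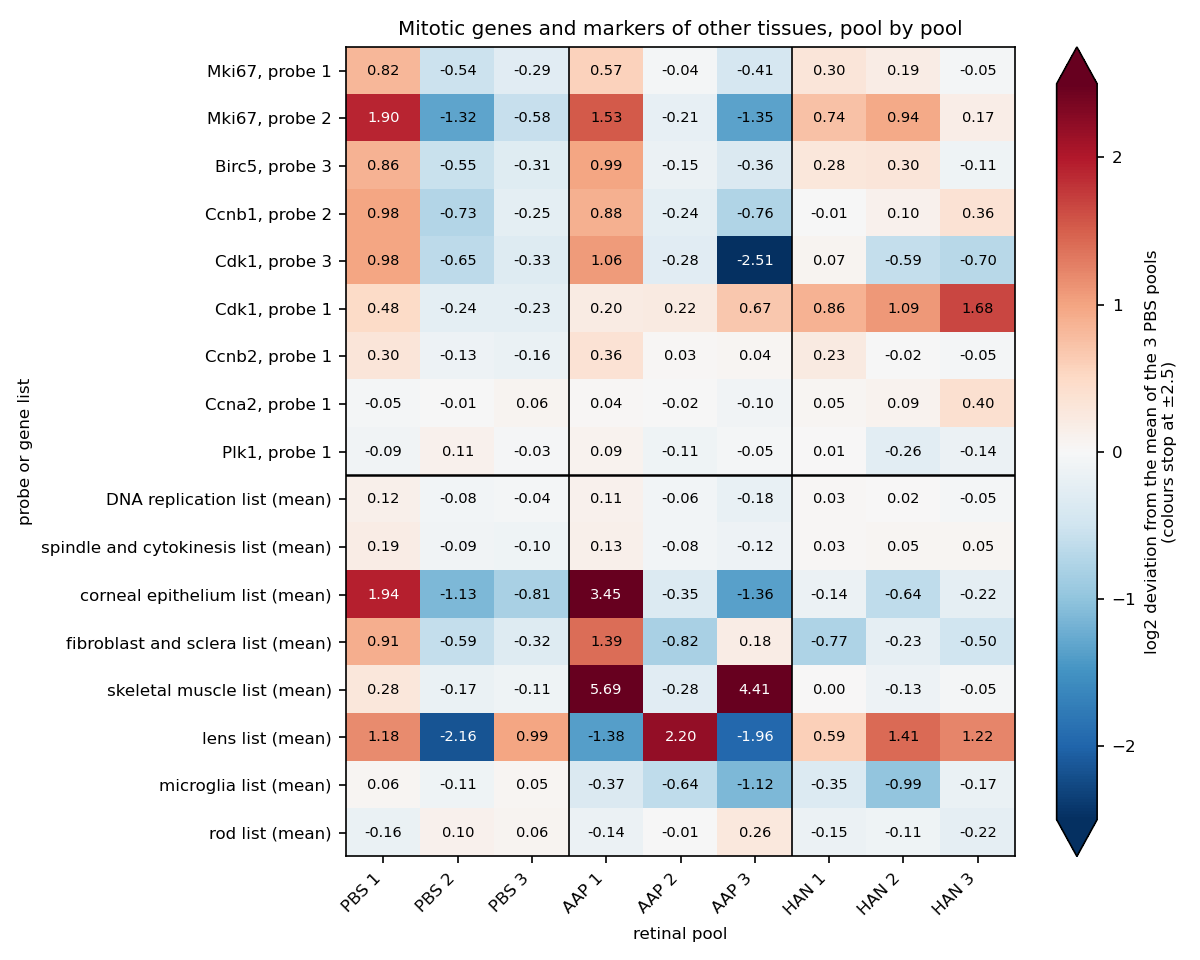
Deviation of each member probe kept for testing (upper block) and of the mean of gene lists (lower block) from the mean of the 3 PBS pools, in log2 units, for the 9 pools; colours stop at ±2.5 and the number is printed in each cell. The probes of Mki67, Birc5 and Ccnb1 and probe 3 of Cdk1 are high in PBS 1 and AAP 1. So is the mean of the list labelled corneal epithelium (1.94 and 3.45). That list also holds conjunctival and ciliary genes, and its gene Krt12 is not high in AAP 1. Probe 1 of Cdk1 is high in the HAN pools.

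Genes whose pattern over the 9 arrays was most like that of a member differed between probe 1 of Cdk1, probe 3 of Cdk1 and Mki67. Among 15195 genes, probe 1 of Cdk1 was most like Mtnr1b, a melatonin receptor (Pearson's r 0.947), Pde1c (0.938), Ago2 (0.936) and Jund (0.929). These 4 were highest in HAN 3, as probe 1 was, with Mtnr1b at -4.26 and Pde1c at -1.31 there. A ranking by likeness to probe 1 favours such genes. For probe 3 of Cdk1, added later, the most alike were Pnp (0.976), Casp8 (0.967) and Sh3bgrl3 (0.959), all highest in AAP 1, as probe 3 was. Anln of the spindle and cytokinesis list followed at 0.948. For Mki67, looked at after its values were seen, the most alike were Cdca8, a subunit of the Aurora B complex (0.994), Uhrf1 (0.984), P2ry2 (0.977), Aldh3a1, an abundant enzyme of the corneal epithelium (0.971), and Birc5 (0.967). Without PBS 1 and AAP 1 these were 0.984 for Cdca8, 0.967 for Uhrf1, 0.963 for P2ry2, 0.967 for Aldh3a1 and 0.975 for Birc5 over 7 arrays. Aldh3a1 read 4.37, 1.42 and 1.64 in PBS, 4.24, 2.51 and 1.06 in AAP, and 3.80, 3.28 and 2.30 in HAN. Arrays share tissue, slides and groups, so these are descriptions of a likeness and carry no p.

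When PBS 1 and AAP 1 were both left out, a choice made after seeing the data, Mki67 stood at 0.56 in HAN relative to PBS, Birc5 at 0.58, Ccnb1 at 0.64, Ccnb2 at 0.20, Ccna2 at 0.16 and Plk1 at -0.17. In AAP relative to HAN the values were -0.37 for Mki67, -0.40 for Birc5, -0.65 for Ccnb1, -0.016 for Ccnb2, -0.24 for Ccna2 and 0.04 for Plk1. For Mki67, Birc5 and Ccnb1 the shift follows from leaving out the highest pool of PBS and of AAP, so it is no separate support for a direction. limma called no tested member in that fit.

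The rest of the cell cycle machinery was described by 9 lists of 161 genes, of which 160 were on the array and 137 were measured. limma called 0 of 137 in each comparison. An unadjusted p under 0.05 was found for 8 genes (5.84%, against 6.79% of all genes) in AAP relative to PBS, 9 (6.57%, against 9.65%) in HAN relative to PBS and 8 (5.84%, against 8.54%) in AAP relative to HAN. In AAP against PBS 64 were higher and 73 lower, with a median of -0.01, and 11 (8.03%, against 11.9% of all genes) had groups that did not overlap. HAN against PBS also had 64 higher and 73 lower, a median of -0.01, and 24 (17.5%, against 20.9%) with groups that did not overlap. AAP against HAN had 71 higher and 66 lower, a median of 0.0028, and 17 (12.4%, against 14.3%) with groups that did not overlap. The genes named from each list are the 2 with the smallest p in a comparison, as values that did not pass the test.

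Among cyclins, kinases and activators (14 of 18 measured), the medians were -0.04 in AAP against PBS, 0.03 in HAN against PBS and 0.03 in AAP against HAN. Cks2, a small subunit of cyclin-dependent kinases, was at -0.28 in AAP and -0.33 in HAN relative to PBS. Cks1b, another such subunit, was at -0.25 in AAP relative to PBS and -0.27 relative to HAN. Ccnh differed by -0.09 in HAN, and Ccnd2, cyclin D2, by -1.26 in AAP relative to HAN with overlapping groups. Among inhibitors and pocket proteins (11 of 13), the medians were -0.09, -0.01 and -0.10. Wee1, the kinase that holds Cdk1 inactive by phosphorylation, was at 0.24 in HAN relative to PBS and at -0.23 in AAP relative to HAN, with no overlap in either (limma adjusted p = 0.498 and 0.574). Rbl2, a pocket protein of resting cells, was at -0.24 in AAP relative to PBS and -0.23 relative to HAN. Pkmyt1 was at 0.21 in AAP and Cdkn2c at -0.21 in HAN, both relative to PBS.

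The transcription factors (18 of 19) had medians of -0.04, -0.02 and -0.01. E2f6, a repressor, was at -0.19 in AAP and -0.28 in HAN relative to PBS. E2f4 was at -0.19 in HAN relative to PBS and 0.17 in AAP relative to HAN. Nfyb, a subunit of the factor that binds CCAAT, was at -0.16 in AAP relative to PBS. Foxm1, which drives the genes of mitosis, was at -0.54 in AAP relative to HAN with groups that did not overlap (limma adjusted p = 0.574). It read -4.86, -5.72 and -5.40 in PBS, -5.23, -5.39 and -5.79 in AAP, and -5.08, -4.85 and -4.84 in HAN. The DNA replication genes (25 of 27) had medians of -0.02, -0.0040 and 0.02. Gmnn, geminin, which blocks a second round of replication, was at -0.25 in HAN relative to PBS (limma adjusted p = 0.437). Pcna (-0.17) and Rrm1 (-0.12) were lower in mean in AAP than in PBS, Rrm1 was at -0.15 in HAN, and Pola1 (-0.17) and Fen1 (0.20) were the genes with the smallest p in AAP against HAN.

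The checkpoint and anaphase genes (15 of 20) had medians of -0.06, -0.03 and 0.0098. Sgo1, shugoshin, which guards the cohesion of sister chromatids, was at -0.26 in HAN relative to PBS and 0.12 in AAP relative to HAN. Espl1, separase, was at -0.64 in HAN relative to PBS. Fbxo5 was at -0.27 in AAP relative to PBS and -0.20 relative to HAN, and Incenp, the scaffold of the Aurora B complex, was at 0.17 in AAP relative to PBS. The kinetochore genes (13 of 17) had medians of 0.02, 0.07 and 0.0041. Ndc80 was at 0.42 in AAP relative to PBS and 0.27 relative to HAN. Spc25 was at 0.16 in AAP and -0.15 in HAN relative to PBS, and at 0.31 in AAP relative to HAN. Zwint was at -0.16 in HAN.

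The spindle and cytokinesis genes (19 of 23; 22 on the array) had medians of 0.0094, -0.0022 and 0.01. Ect2, the exchange factor that starts the cleavage furrow, was at 0.24 in AAP and 0.20 in HAN relative to PBS, without overlap (limma adjusted p = 0.664 and 0.454). Spag5 was at 0.30 in HAN relative to PBS and -0.26 in AAP relative to HAN, and Ckap2 at -0.45 in AAP relative to PBS and -0.39 relative to HAN. The condensation genes (10 of 11) had medians of 0.03, 0.07 and -0.06. Ncapg2 was at 0.09 in AAP and 0.18 in HAN relative to PBS and -0.09 in AAP relative to HAN, Ncaph2 at 0.13 in AAP and Ncapd3 at 0.14 in HAN relative to PBS, and Smc4 at 0.22 in AAP relative to HAN.

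The list of retinal progenitor markers (12 of 13; Fgf15 was not measured) had medians of -0.05, -0.06 and -0.07. Notch1, a receptor that keeps progenitors undifferentiated, was at 0.34 in AAP relative to PBS and at 0.50 relative to HAN. It read -0.87, -1.20 and -1.31 in PBS, -0.88, -0.80 and -0.68 in AAP, and -1.31, -1.38 and -1.18 in HAN, so that AAP and HAN did not overlap, and it did not pass the test (limma adjusted p = 0.574). Pax6 was at -0.19 in AAP and -0.14 in HAN relative to PBS, Neurog2 at -0.12 in HAN, and Sox2 at -0.22 in AAP relative to HAN.

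**Figure D5:**
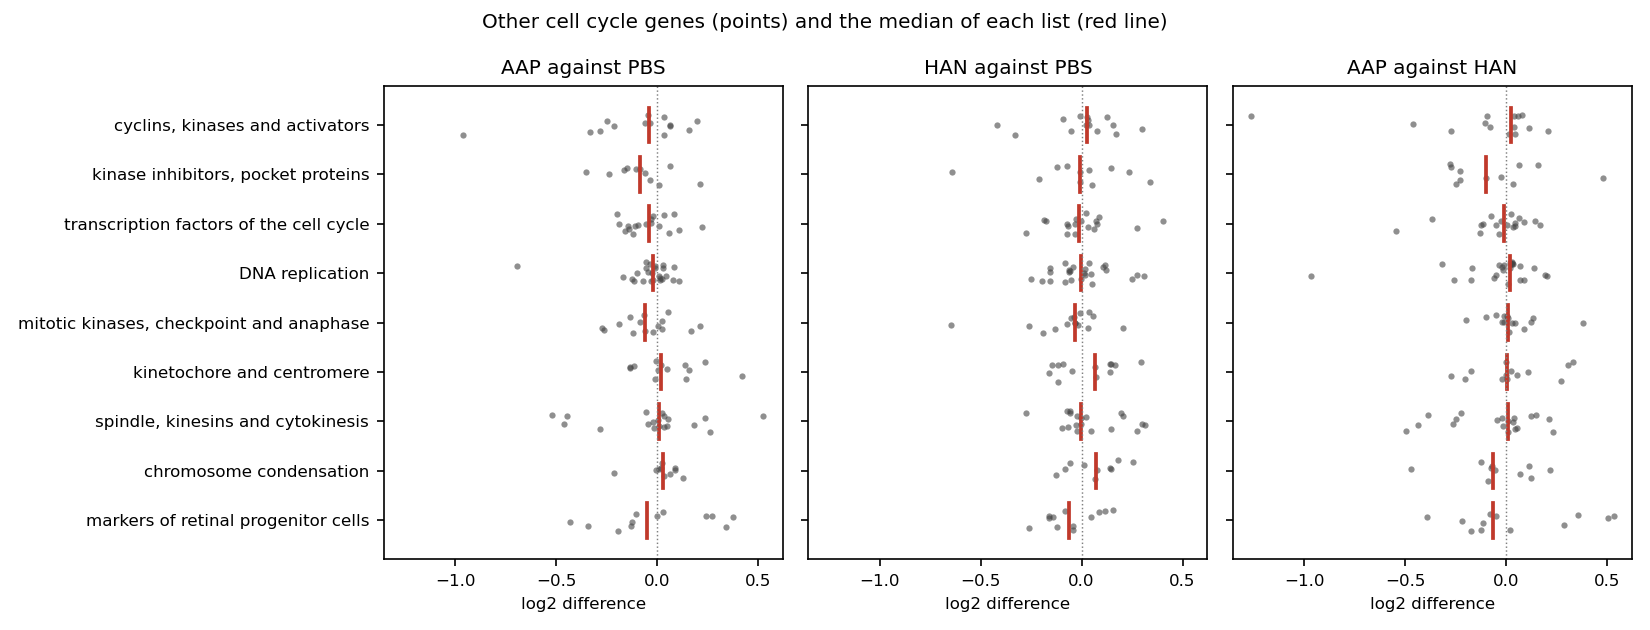
Log2 difference of each measured gene (points, spread vertically for legibility) in the 9 lists of other cell cycle genes, with the median of each list as a red line, in the 3 comparisons. The medians lie between -0.10 and 0.07, and no gene passed the test.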

How the data were processed

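RNA of 9 retinal pools was measured on 1-colour Agilent arrays (Cy3), 3 pools for each of PBS, AAP and HAN. Per the file headers, Feature Extraction 11.0.1.1 (protocol GE1_1100_Jul11) quantified the spots of a design annotated on mm9, and the processed signal is a linear intensity that was background-subtracted and detrended within an array. The authors deposited these intensities in scanner files, together with a value table. There, 99.83% to 99.90% of probes equalled the mean processed signal within a relative tolerance of 0.0001, so its scale, centring and direction are those of the scanner intensities. Its column medians were 298.3, 256.4 and 231.9 (PBS 1 to 3), 265.5, 237.6 and 164.7 (AAP) and 251.1, 242.5 and 296.5 (HAN). The authors' own test of the groups was not given in the sources used here.

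Control spots and 103 to 160 outlier spots an array were left out, and 0 spots were saturated. The log2 intensity minus the log2 75th percentile of the array was averaged over spots. Probes were named through transcript accessions in a GRCm38.p6 RefSeq table (26055 probes matched, 13374 did not). Probes well above background on all arrays of at least 1 group were kept, and the one with the highest mean stood for a gene. limma 3.58.1 (R 4.3.3; lmFit and eBayes, two-sided, a mean per group over 9 arrays) tested 23889 genes with Benjamini-Hochberg adjustment at 0.05; tables and figures were made in Python 3.11.15. The number of arrays limits the precision. The code was tested on simulated data. Bounds for a group with no array well above background use, per array, the higher of the probe's own signal and the lowest signal well above background.

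The members and lists were chosen with earlier results of these data known. Named genes are all members, the 2 genes with the smallest p of each pathway list where none passed, markers by list, and the 5 genes most like probe 1 of Cdk1, not all of which are reported here. Alternatives were normexp background correction, quantile normalization, another percentile, other filters and probe choices, the slide or the replicate number as a block, array weights and leaving out pools. The scanner files used here hold a median and no mean signal column, so normexp (offset 50) was run on the median signal and background.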

Additional observations from a re-analysis of the deposited data

How the results depend on the processing

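No tested member was called under any alternative that was run, but directions were unsettled: of 435 values of the 7 members under alternatives, 44 changed sign and 3 moved by more than the spread between pools, all with Cdk1 in HAN against PBS. That difference was 0.71 with normexp, where probe 3 stood for the gene (1.06 for probe 1 itself under normexp). Without normexp, probe 3 was at -0.41, so its own sign turned. For Cdk1 the difference was 0.40 with the mean of its kept probes and 0.73 with the slide as a fixed block. Leaving out 1 pool gave 0.98 to 1.45.

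With normexp the median of all genes moved to 0.15 in HAN against PBS and -0.12 in AAP against HAN. Signs that turned with normexp were those of Ccnb1 (0.16) and Ccna2 (0.0018) in AAP against PBS and Plk1 (0.045) in HAN against PBS. In AAP against HAN those of Ccnb2 (-0.20), Plk1 (-0.12) and Birc5 (-0.32) turned. Compared with itself, Cdk1 probe 3 also turned in AAP against PBS, from -0.58 to 0.18. With the slide as a fixed block, Ccnb1 (0.88), Ccna2 (0.038) and Plk1 (0.085) turned in AAP against PBS, Plk1 (0.046) in HAN against PBS, and Ccnb2 (-0.069) and Birc5 (-0.54) in AAP against HAN; HAN is then set against PBS only through the AAP pools, and Mki67, Birc5 and Ccnb1 were at 1.04, 1.53 and 1.42 there. With the slide as a random block, Ccnb1 in AAP against PBS was 0.10 and Birc5 in AAP against HAN -0.030. With array weights the same values were 0.21 and -0.0049. The mean of kept probes put Cdk1 in AAP against PBS at -0.11, the other 75th percentile put Birc5 in AAP against HAN at -0.0032, and leaving out PBS 1 and AAP 1, added after seeing the data, put Ccnb2 and Birc5 there at -0.016 and -0.40. The cause was not tested.

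Leaving out 1 pool gave, in AAP against PBS, -0.50 to 0.45 for Ccnb1, -0.056 to 0.011 for Ccna2, -0.085 to 0.028 for Plk1, -0.25 to 0.59 for Birc5 and -0.23 to 0.45 for Mki67. In HAN against PBS it gave -0.22 to 0.64 for Ccnb1, -0.035 to 0.20 for Ccnb2, -0.12 to 0.58 for Birc5 and -0.12 to 0.56 for Mki67. In AAP against HAN it gave -0.65 to 0.17 for Ccnb1, -0.016 to 0.18 for Ccnb2, -0.40 to 0.27 for Birc5 and -0.37 to 0.12 for Mki67. PBS 1 and AAP 1 gave most of these ends.

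Over all genes, 1 was called in AAP against PBS; it was 0 with normexp, quantile normalization, no filter or without PBS 1 and AAP 1, 48 with the slide as a fixed block, and 0 to 12 with 1 pool left out (12 without AAP 2). In HAN against PBS 1 was called; it was 0 with normexp or without PBS 1 and AAP 1, 2 with the slide as a fixed block, 5 with array weights, and 1 to 3 with 1 pool left out (3 without HAN 1). AAP against HAN gave 0, and 0 to 13 with 1 pool left out (13 without AAP 2). Same-numbered pools did not deviate together throughout (r -0.28 to 0.40). Deviations of 3 pools from their own mean are not independent, so these values cannot settle whether the numbers pair the pools. The main fit did not pair them. With the replicate number as a block, 0 genes were called in each comparison. Medians of the pathway lists moved by more than the spread between pools in 74 of 567 cases (22 with normexp, 14 with the slide as a fixed block) and probe levels in 20 of 204 (16 with normexp). Aurkb and Bub1, not well above background on any array, have no level here.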
